A study of Mus musculus with 55 samples.

Results

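The 79 genes described here encode the machine that starts messenger RNA synthesis: the subunits of RNA polymerase II, the general transcription factors that place it at a promoter, the TBP-associated factors and the subunits of Mediator. They were taken from the 33924 genes of a count table of mouse oocytes by symbol alone, as those that begin with Polr2 or Gtf2, or with Med or Taf and a digit, leaving out Taf4b and names ending in -ps. The set holds 12 subunits of RNA polymerase II, 13 subunits of the general factors TFIIA, TFIIB, TFIIE, TFIIF and TFIIH, 3 genes of the TFII-I family, 15 TAFs of TFIID and their paralogues, 6 other genes with a Taf symbol and 30 Mediator subunits. A separate table of the Trim experiment held 77 of them with identical exons, the exceptions being Taf9 and Med20. Expression was measured by poly(A) RNA sequencing, as read counts per gene, in 24 of the 55 samples of the series.

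The comparisons set 5 pairs of groups against each other, all of them mouse oocytes. Growing oocytes came as 3 libraries labelled Dhx36_sko and 3 labelled control, and the protocol names the mice of the first group Dhx36fl/fl;SKO, a floxed allele of the helicase gene Dhx36 with a term that the labels do not expand. A second experiment held a genotype labelled rhau_sko (RHAU is another name of DHX36) and one labelled c, each with and without DRB, an inhibitor of the elongation kinase CDK9. Its libraries used here were 1 rhau_sko, 2 rhau_sko with DRB, 2 c and 1 c with DRB, so that the genotypes and the drug were each compared over 3 libraries against 3. Germinal vesicle (GV) oocytes labelled cPDS for 12 h were set against GV_C, 3 libraries each. The GV_C labels give no time, so the ligand and 12 h of culture cannot be told apart in that comparison. cPDS, carboxypyridostatin, is a ligand of RNA G-quadruplexes, folded structures of guanine-rich RNA that DHX36 unwinds. Oocytes labelled Trim21 at 3 h were set against control at 3 h, 3 libraries each. The titles of both groups also name Dhx36. TRIM21 is an antibody receptor, used in the Trim-Away method to degrade the protein that an introduced antibody binds, and the labels say no more of how it was applied here. The labels give neither animals, ages nor the number of oocytes in a library, nor what drives the deletion, so p-values measure the spread between these libraries, which may be technical.

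Transcription by RNA polymerase II begins when TFIID, which is TBP with its TAFs, recognises a promoter and TFIIA and TFIIB steady it there. TFIIF brings in the polymerase, TFIIE recruits TFIIH, and TFIIH opens the DNA and carries the kinase that phosphorylates the tail of the largest subunit. Mediator, built of head, middle and tail modules on the backbone subunit MED14, passes signals from DNA-bound activators to the polymerase, and a detachable kinase module of MED12, MED13, cyclin C and CDK8 or its paralogue controls that contact. Oocytes also make germ cell forms of this machinery, among them TBPL2, which can take the place of TBP, and the TFIIA subunit encoded by Gtf2a1l. Growing oocytes transcribe actively, and transcription falls silent towards the end of growth, so that a fully grown oocyte relies on stored RNA.

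Depth of the 24 libraries ran between 7452742 and 65444652 counts, the shallowest being Trim21 replicate 2, and the 79 genes took 1.07% to 1.33% of them. The libraries c with DRB replicate 4 (129192 counts) and rhau_sko replicate 6 (127927 counts) were left out. Dhx36 itself fell in the growing Dhx36_sko libraries (2.17 ± 0.582 CPM, against 8.77 ± 1.89 CPM in control), in rhau_sko (5.95 ± 1.61 CPM, against 42.6 ± 4.58 CPM in c) and in Trim21 (7.72 ± 1.33 CPM, against 30.5 ± 1.33 CPM in its control; SD, n = 3 each), and it was higher after cPDS (35.5 ± 3.72 CPM, against 21.5 ± 1.3 CPM in GV_C). CPM here are counts relative to library size, scaled within each comparison by the TMM method. A list of 11 oocyte marker genes had none at 0 in any library. It took 2.73% to 3.17% of counts in growing Dhx36_sko, against 2.84% to 2.97% in control, and 1.33% to 1.37% in the rhau_sko libraries, against 1.65% to 1.86% in the c libraries, where 6 of the 11 were lower and 0 higher. In Trim21 it took 1.78% to 1.9%, against 1.79% to 1.99% in its control. Markers of granulosa and cumulus cells, 15 genes, took 0.00866% to 0.00921% of counts in growing Dhx36_sko libraries, against 0.00251% to 0.00279% in control, and 0.0121% to 0.0179% in the rhau_sko libraries, against 0.00739% to 0.0102% in the c libraries, with Ptx3 at 0 in all 6 growing libraries. Theca and stroma markers, 9 genes, took 0.000496% to 0.000883% in growing Dhx36_sko, against 0.00029% to 0.000341% in control, and 0.000622% to 0.00102% in the rhau_sko libraries, against 0.000358% to 0.00051% in the c libraries. The granulosa and cumulus list took 0.00921% to 0.0105% after cPDS, against 0.0116% to 0.0121% in GV_C, and 0.00698% to 0.00789% in Trim21, against 0.00499% to 0.00532% in its control. In a library of many cells fewer cells of a type and less RNA per cell cannot be told apart.

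Levels per length differed widely within the polymerase. In TPM (counts divided by exon length and scaled to the same total in every library), Polr2g and Polr2d, the subunits of the stalk, led in all 4 untreated or control groups. Polr2g averaged 2133 ± 231 TPM in growing control, 2358 ± 17.4 TPM in c, 1446 ± 103 TPM in GV_C and 2564 ± 144 TPM in the Trim control (SD, n = 3, and 2 for c). Polr2d averaged 1668 ± 91.6, 2203 ± 201, 2423 ± 114 and 2908 ± 25.2 TPM in the same order of groups. Polr2g was above Polr2d in growing control and c, and below it in GV_C and the Trim control, with no overlap of libraries, although in c the nearest values were 2346 and 2345 TPM. The catalytic core was at the other end. Polr2a, the largest subunit and carrier of the phosphorylated tail, averaged 0.71 ± 0.127 TPM in growing control, 1.37 ± 0.367 TPM in c, 0.839 ± 0.0886 TPM in GV_C and 1.23 ± 0.167 TPM in the Trim control, on 54 to 185 counts per library. Polr2b, the second largest, stood at 0 to 0.3 TPM in those libraries, but 81.6% of its exon bases are shared on the same strand with the annotated feature AC141469.5, so its value cannot be read as its level.

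**Figure D1:**
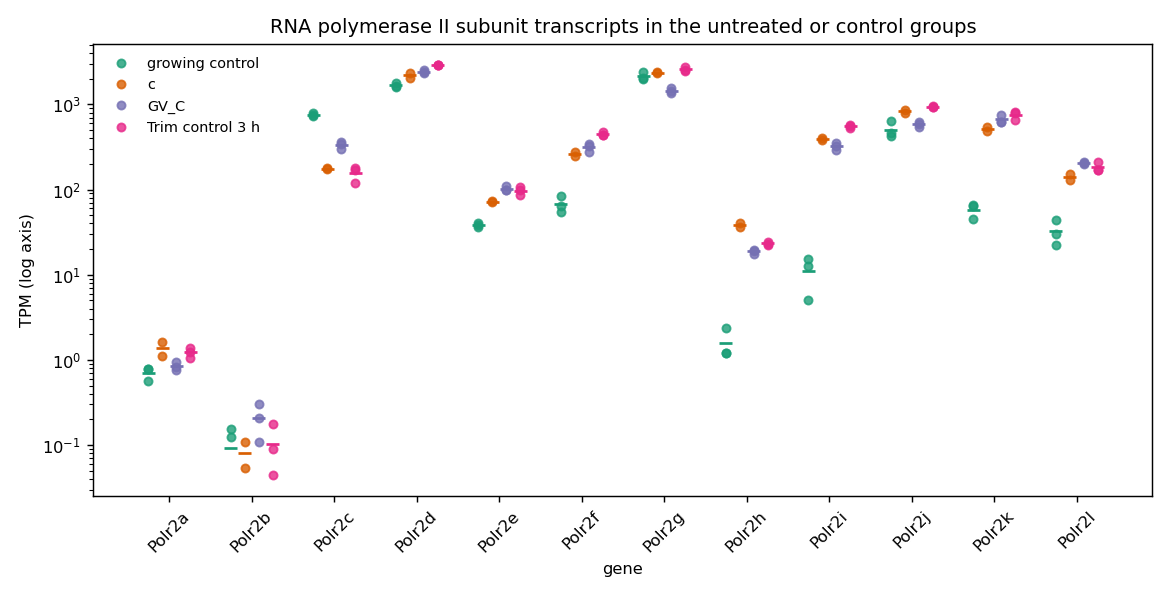
TPM of the 12 RNA polymerase II subunits (x axis, genes; y axis, log scale) in each library of growing control (green), c (orange), GV_C (purple) and Trim control 3 h (pink), with bars at the group means; a library at 0 counts for Polr2b enters the mean but has no point. Polr2d and Polr2g lie at 1358 TPM or above in every library, and Polr2a at 1.63 TPM or below.

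In TPM, short transcripts tended to stand high and long ones low across the set. Across the members with a count, exon length and mean TPM had a Spearman rho of -0.49 in growing control (n = 78 genes), -0.60 in c (n = 78), -0.58 in GV_C (n = 79) and -0.61 in the Trim control (n = 77), whereas over all genes with a count rho lay between 0.02 and 0.12. These are correlations across genes of 1 set of libraries, and genes are not independent replicates. Exon length also enters TPM as its divisor, and no such correlation was made with CPM. The long genes include the kinase module, where Med12 averaged 0.739 TPM and Med13 5.3 TPM in growing control, and the TFIID scaffold Taf1 at 2.81 TPM. Among the general factors Gtf2b, the single subunit of TFIIB that bridges TFIID and the polymerase, was highest in growing control at 1154 ± 121 TPM, and in Mediator Med30 at 1207 ± 109 TPM and Med28 at 1089 ± 119 TPM. Taf7l, a germ cell paralogue of Taf7, was at 0.0213 TPM in growing control and had at most 6 counts in any library, against 306 TPM for Taf7. The median of the members was 31 TPM in growing control and 60.2 TPM in GV_C, beside medians of 1.22 and 1.65 TPM over all genes with a count.

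Several small subunits differed in level between the growing and the GV control groups, which come from separate experiments, so stage and experiment cannot be told apart and no test was made. Polr2i averaged 11.1 ± 5.36 TPM in growing control, and 323 ± 31.5 TPM in GV_C. Of its exon bases 26.8% lie opposite Tbcb, from which reads without strand cannot be told apart, here and in the comparisons below. Polr2h, shared by all 3 nuclear polymerases, averaged 1.6 ± 0.681 and 18.8 ± 0.992 TPM, and Polr2k, also shared, 58 ± 11.6 and 667 ± 75.7 TPM. Taf9 averaged 24.7 ± 0.732 and 459 ± 3.84 TPM, whereas its paralogue Taf9b averaged 254 ± 51.8 and 172 ± 4.32 TPM. In growing control Taf9b therefore stood above Taf9, and in GV_C below it, with no overlap of the libraries in either group. The germ cell TFIIA gene Gtf2a1l averaged 91.5 ± 1.83 TPM, against 55.4 ± 4.45 TPM for its somatic counterpart Gtf2a1 in growing control, and 208 ± 10.6 and 164 ± 4.63 TPM in GV_C, again without overlap. Of the TBP family, Tbpl2 averaged 18.2 ± 0.528 TPM and Tbp 12.3 ± 2.12 TPM in growing control, and 50.2 ± 0.985 and 33.4 ± 1.38 TPM in GV_C. The last 2 orders rest on the division by exon length, and in CPM both reversed in both groups. In growing control Gtf2a1l (1621 exon bases) had 72.6, 69.5 and 67.3 CPM, and Gtf2a1 (5587 exon bases) 163, 149 and 125 CPM. Tbpl2 had 13, 11.7 and 10.9 CPM there, and Tbp 90.5, 84.2 and 58.8 CPM.

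In growing oocytes of the Dhx36_sko group 4 of 12 polymerase subunits (33.3%) and 4 of 14 TFIID genes (28.6%) were lower, near the 25.2% of all genes. Higher were 1 of each (8.33% and 7.14%), beside 28.5% of all genes. Of the 4 Med12 and Med13 genes of the Mediator kinase module 3 were higher, whereas Ccnc, its cyclin, was lower. Of the 75 members with enough counts to test, 9 rose and 19 fell at an adjusted p under 0.05 (edgeR's quasi-likelihood test, Benjamini-Hochberg adjustment over 14081 genes). That is 37.3% of the members, where 53.7% of all genes tested were called. By direction, 12% of the members rose, with 28.5% of all genes, and 25.3% fell, with 25.2% of all genes. The members' median log2 fold change was -0.15, beside 0.02 over all genes, and the median size of change, sign left out, was 0.27, beside 0.62. When libraries were scaled by their size alone, without TMM, the median of all genes moved to 0.21 and that of the members to 0.03, and 13 members rose and 12 fell. With that scaling 1 polymerase subunit rose and 3 fell, and 2 TFIID genes rose and 3 fell. Relative to all genes the members' median was -0.17 with TMM and -0.18 without. Of the 28 calls, 17 held in every alternative run, and those of Gtf2e1, Taf11 and Taf12 below were among the 11 that did not. The granulosa and cumulus share and the theca and stroma share were higher in all 3 Dhx36_sko libraries. Of 9 granulosa and cumulus markers tested 4 rose, 2 of them at least 2-fold, and 0 fell. The 9 had a median log2 fold change of 0.61, from -0.93 to 6.73, so the summed share need not stand for the whole list. Of 3 theca and stroma markers 2 rose and 0 fell. Immune, endothelial and blood markers, 8 genes, took 0.000935% to 0.0012% of counts in Dhx36_sko, against 0.00116% to 0.00135% in control. Of 4 tested 1 rose and 2 fell. The part of any of these lists in the calls was not tested.

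RNA polymerase II had 1 higher and 4 lower subunits among 12. Polr2c, a core subunit of the assembly platform (chr8:97381350-97397435, plus strand, mm9), stood at 818, 842 and 865 CPM in Dhx36_sko libraries, against 1737, 1726 and 1598 CPM in control. It fell 2-fold (SE 0.12 on the log2 scale, adjusted p = 3.36e-06 by edgeR), with no overlap, and 15.3% of its exon bases lie opposite another gene, from which reads without strand cannot be told apart. Polr2e, a subunit shared by the 3 nuclear polymerases, had 24.1, 27.2 and 27 CPM in Dhx36_sko, against 49.3, 47.3 and 48.8 CPM in control. Its log2 fold change was -0.89 ± 0.12 (adjusted p = 1.83e-05 by edgeR), without overlap. The stalk subunit Polr2g fell by 0.82 ± 0.12 on the log2 scale, averaging 494 ± 30.3 CPM in Dhx36_sko and 869 ± 64.1 CPM in control (SD, n = 3 each; adjusted p = 3.48e-05 by edgeR). The fourth, the shared subunit Polr2f, changed by -0.65 ± 0.18 (adjusted p = 0.00563 by edgeR), and with library size alone its adjusted p was 0.0556. The subunit that rose, Polr2h, had a log2 fold change of 0.98 ± 0.37 at a mean of 2.13 CPM in Dhx36_sko, and its call was lost without any of 3 single libraries (control replicates 1 and 2, Dhx36_sko replicate 5). Polr2a did not pass the test (log2 fold change 0.27 ± 0.26).

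Among the general factors the pair of TFIIA large subunits moved in opposite directions. Gtf2a1 (chr12:92794356-92828927, minus strand, mm9) had 71.1, 71 and 79.3 CPM in Dhx36_sko libraries, against 163, 149 and 125 CPM in control, a log2 fold change of -0.98 ± 0.13 (adjusted p = 1.06e-05 by edgeR). Gtf2a1l (chr17:89068000-89114492, plus strand, mm9) had 126, 118 and 99.3 CPM in Dhx36_sko libraries, against 72.6, 69.5 and 67.3 CPM in control, a log2 fold change of 0.71 ± 0.12 (adjusted p = 0.000177 by edgeR). Neither pair of groups overlapped. Gtf2h2, a core subunit of TFIIH, rose by 0.78 ± 0.14, averaging 185 ± 5.79 CPM in Dhx36_sko and 108 ± 21.5 CPM in control. Gtf2f1, the large subunit of TFIIF, and Gtf2e1, the large subunit of TFIIE, fell by 0.64 and 0.45 on the log2 scale. Of the TBP family, Tbpl2 rose 2.61-fold, to 31 ± 4.38 CPM in Dhx36_sko, against 11.9 ± 1.04 CPM in control (log2 fold change 1.39 ± 0.15, adjusted p = 1.4e-06 by edgeR), Tbpl1 changed by -0.69 ± 0.15, and Tbp did not pass the test (0.29 ± 0.15).

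TFIID had 1 higher and 4 lower genes among 14 tested, with Taf3 the most changed. Taf3 (chr2:9836179-9970223, minus strand, mm9), the TAF that reads a histone mark of active promoters, had 123, 123 and 128 CPM in Dhx36_sko libraries, against 320, 356 and 305 CPM in control. It fell 2.62-fold (log2 fold change -1.39 ± 0.12, adjusted p = 1.13e-07 by edgeR). The other lower ones were Taf1, Taf5 and Taf12, and Taf11 was higher by 0.36 ± 0.13. In Mediator, 5 genes rose and 5 fell among 29. The kinase module accounted for 3 of the rises, with Med13 at 0.45 ± 0.15, Med13l at 0.59 ± 0.18 and Med12l at 1.16 ± 0.30 on the log2 scale, and Med12 at 0.22 ± 0.26 not past the test. Med13l and Med12l lie at 12.3 and 3.89 CPM in Dhx36_sko, and without control replicate 1 the adjusted p of Med13l was 0.0533. Med13 lost its call without control replicate 1 or 2 or Dhx36_sko replicate 6, and 16.1% of the exon bases of Med12l lie opposite another gene. Cdk8, their kinase, rose by 0.41 ± 0.15, and Ccnc, the cyclin of that kinase, fell by 0.88 ± 0.14. Med27, a tail subunit with high counts, had 1998, 2257 and 2100 CPM in Dhx36_sko, against 1269, 1024 and 1217 CPM in control, with a log2 fold change of 0.86 ± 0.13. Med1, the subunit that many nuclear receptors bind, fell by 0.30 ± 0.12 (adjusted p = 0.0468 by edgeR), and this call was lost in several alternatives, among them library size alone.

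In the second experiment the rhau_sko libraries held 6 higher and 13 lower members among 78 tested, when compared with the c libraries in a model with DRB as a covariate. The share called was 24.4%, beside 36% of 16784 genes, with 7.69% of the members higher, beside 19.2% of all genes, and 16.7% lower, beside 16.8%. Med13l (chr5:119010728-119215444, plus strand, mm9) changed most. It had 116, 176 and 150 CPM in the rhau_sko libraries, against 46.4, 45.6 and 40 CPM in the c libraries, a log2 fold change of 1.68 ± 0.16 (adjusted p = 2.96e-05 by edgeR), where each first value in rhau_sko is the library without DRB and the third in c is the one with it. Taf5l, a subunit of the SAGA coactivator, had 5.22, 5.77 and 6.98 CPM in rhau_sko, against 14.4, 14.9 and 16.1 CPM in c, a log2 fold change of -1.41 ± 0.20 (adjusted p = 0.000356 by edgeR). These were the only calls kept under all 15 alternatives run for this comparison.

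Most other calls were smaller. The rhau_sko libraries had higher summed shares of granulosa and of theca markers and a lower share of oocyte markers. Immune, endothelial and blood markers, 8 genes, took 0.00235% to 0.00329% of counts there, against 0.00412% to 0.00491% in the c libraries. Of 4 tested 1 was higher and 3 lower. Of 9 granulosa and cumulus markers tested 4 were higher, 2 of them at least 2-fold, and 0 lower. The 9 had a median log2 fold change of 0.82, from -1.91 to 4.32. Of 4 theca and stroma markers tested 1 was higher and 0 lower, and their median log2 fold change was -0.32. The part of these lists in the calls was not tested. Gtf2h2 changed by 0.59 ± 0.12, Med27 by 0.40 ± 0.09 and Gtf2f2, the small subunit of TFIIF, by 0.31 ± 0.11. Polr2c, Polr2e, Taf3 and Taf9b changed by -0.51 ± 0.12, -0.50 ± 0.12, -0.51 ± 0.12 and -0.61 ± 0.16. Taf15, an RNA-binding protein of the FET family that shares only its symbol with most TAFs, rose to 4.18, 9.79 and 7.42 CPM in rhau_sko, against 2.41, 1.65 and 3.22 CPM in c (log2 fold change 1.23 ± 0.29, adjusted p = 0.00683 by edgeR). Without the single c library with DRB, 7 members were called, and Gtf2h2, Polr2c, Polr2e, Taf3, Taf9b and Taf15 then had adjusted p between 0.0715 and 0.171. Without the single rhau_sko library that had no DRB 10 members were called, 9 of them among the 19, and without c replicate 2 there were 12 calls. Within the 3 libraries without DRB 7 members were called, and within the 3 with DRB 10, where 1 arm of each is a single library assumed to vary like the others. Polr2a (0.01 ± 0.27), Gtf2a1 (-0.07 ± 0.12) and Tbpl2 (0.16 ± 0.18) did not pass the test.

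The sko calls of the 2 experiments, which share no library, were mostly in the same direction. Gtf2h2, Med13l, Med19 and Med27 rose in both, which is 44.4% of the 9 higher members in growing oocytes and 66.7% of the 6 in the second experiment. Polr2c, Polr2e, Polr2f, Taf3, Taf12, Taf5l, Med4, Med8, Med25 and Med28 fell in both, 52.6% of 19 and 76.9% of 13. Over all genes tested in both, the shares were 50% and 70% for rises and 50.5% and 66.5% for falls. Gtf2a1l and Taf15 were called in opposite directions. The fall of Gtf2a1l in rhau_sko was lost in 7 of 15 alternatives and had a log2 fold change of -0.18 without rhau_sko replicate 5 (adjusted p = 0.405 by edgeR), and the fall of Taf15 in growing Dhx36_sko was lost in 5 of 11. A test of the difference between the sko changes on the 12 libraries of both experiments called 8 of 78 members, 10.3%, beside 12.5% of 17437 genes; 3 were higher in growing oocytes (7.63% of all genes) and 5 lower (4.91%). Gtf2a1l had a difference of 1.16 ± 0.19 (growing minus second, log2; adjusted p = 0.000475 by edgeR), and Taf15 one of -1.81 ± 0.37 (adjusted p = 0.00325 by edgeR). The fall of Taf3 was larger in growing oocytes (-0.85 ± 0.16). Gtf2a1 (-0.89 ± 0.19) and Polr2g (-0.54 ± 0.15) fell in growing Dhx36_sko and did not pass the test in rhau_sko. The rise of Med13l was larger in the second experiment (-1.06 ± 0.24), and Taf11 (0.71 ± 0.18) and Med12l (1.35 ± 0.42) rose in growing Dhx36_sko and did not pass the test in rhau_sko. Whatever else separates the 2 experiments, which the labels do not give, cannot be told apart from these differences.

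**Figure D2:**
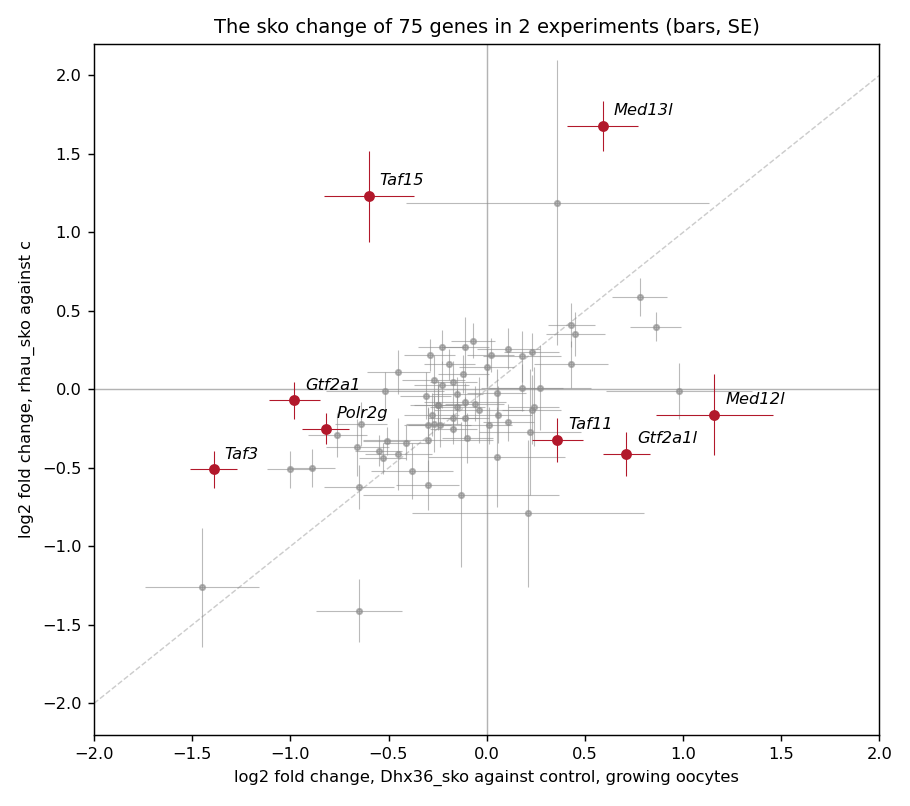
Log2 fold change of 75 members in growing Dhx36_sko against control (x axis) and in rhau_sko against c (y axis), with SE bars; the dashed line marks equal change, and red points are the 8 members whose change differed between experiments. Gtf2a1l and Taf15 lie in opposite quadrants, Med13l far above the line and Taf3 left of it.

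After 12 h of cPDS members moved in both directions, and more of them rose than among all genes tested. Of 77 members tested, 31 rose and 20 fell. The share called was 66.2%, beside 50.8% of 16115 genes; 40.3% rose, beside 23.4% of all genes, and 26% fell, beside 27.4%. The median size of change, sign left out, was 0.46 for the members and 0.43 for all genes. Of the 51 calls 45 held in every alternative, the exceptions being Gtf2ird1, Med12l, Med18, Taf12, Taf5l and Taf7. The members' median log2 CPM was 6.14, beside 3.04 for all genes tested, so that they were better counted than most. The rises were mostly small, with only Med14 past 2-fold, and the falls reached further, with 7 members past 2-fold (Med9, Gtf2f1, Gtf2a1, Gtf2h1, Taf15, Gtf2h2 and Med29), where 1.6% of all genes rose and 12.7% fell by that much. Markers of immune, endothelial and blood cells, 8 genes, took 0.00166% to 0.00172% of counts after cPDS, against 0.00573% to 0.00608% in GV_C, with Hba-a1 and Hbb-b1 at 0 in all 6 libraries. Most of these counts were of 1 gene, Pecam1, which averaged 13.6 CPM after cPDS and 55.4 CPM in GV_C. Of the other list genes tested, Kdr (-0.05 ± 0.27) and Cd68 (0.04 ± 0.24) did not pass the test. The 11 oocyte markers took 2.92% to 3.28% of counts after cPDS, against 2.2% to 2.43% in GV_C, with 7 of them higher and 2 lower, and the part of either list in the result was not tested.

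Among the 13 general factors tested 5 fell and 3 rose, and 4 of the falls (Gtf2f1, Gtf2a1, Gtf2h1 and Gtf2h2) were past 2-fold. Gtf2a1 had 118, 116 and 119 CPM after cPDS, against 397, 399 and 378 CPM in GV_C. It fell 3.33-fold (log2 fold change -1.73 ± 0.06, adjusted p = 1.03e-11 by edgeR), whereas its germ cell counterpart Gtf2a1l did not pass the test (0.11 ± 0.07). Gtf2f1 (chr17:57142826-57150723, minus strand, mm9) had 26.1, 21.1 and 19.1 CPM after cPDS, against 74.3, 77.3 and 79.4 CPM in GV_C, a 3.49-fold fall (adjusted p = 1.42e-09 by edgeR), while its partner in TFIIF, Gtf2f2, had 138, 129 and 120 CPM, against 131, 135 and 126 CPM, and the groups overlap. In TFIIH, Gtf2h1 (chr7:54051473-54079170, plus strand, mm9), a scaffold subunit, had 33.7, 36.4 and 32.4 CPM after cPDS, against 113, 102 and 105 CPM in GV_C, a log2 fold change of -1.64 ± 0.08 (adjusted p = 1.72e-10 by edgeR). Gtf2h2 fell 2.14-fold and Gtf2e2, the small subunit of TFIIE, fell by 0.85 on the log2 scale. Gtf2b rose to 588, 608 and 634 CPM after cPDS, against 443, 435 and 428 CPM in GV_C (log2 fold change 0.49 ± 0.06, adjusted p = 5.46e-06 by edgeR). Gtf2a2, the small subunit of TFIIA, and Gtf2h3 rose by 0.46 each.

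Mediator held 13 higher and 7 lower genes among 29. In the head 4 of 7 fell (Med17, Med18, Med20 and Med22) and Med6 rose. Of the exon bases of Med20, however, 38.5% are shared with another annotated feature on the same strand and 10.8% on the opposite strand. Its value therefore cannot be read as its level, and Med18 was among the calls that did not hold in every alternative. In the middle 4 of 8 rose (Med7, Med19, Med21 and Med31) and Med4 and Med9 fell. Med9 (chr11:59761708-59775707, plus strand, mm9) had 6.05, 5.66 and 6.15 CPM after cPDS, against 24.8, 25.7 and 28.8 CPM in GV_C, the largest fall of the set at 4.43-fold (log2 fold change -2.15 ± 0.11, adjusted p = 3.23e-10 by edgeR). Med14 (chrX:12252495-12339199, minus strand, mm9), the backbone on which the modules are built, had 53.3, 52.6 and 63.1 CPM after cPDS, against 28.7, 27 and 27.6 CPM in GV_C. It rose 2.03-fold (adjusted p = 1.73e-07 by edgeR). Of the kinase module, Med13, Med13l and Med12l rose by 0.87 ± 0.10, 0.46 ± 0.10 and 0.57 ± 0.18, and so did Cdk8 by 0.60 ± 0.08 and Ccnc by 0.53 ± 0.07. Med12 itself did not pass the test (0.37 ± 0.15). In the tail Med23, Med25, Med27 and Med30 rose and Med29 fell. Med23, a tail subunit that receives signals from activators, had 73.3, 86.3 and 74.5 CPM after cPDS, against 46.8, 42.5 and 42.3 CPM in GV_C (0.83 ± 0.09, adjusted p = 9.29e-07 by edgeR). Of the exon bases of Med7, Med21 and Med31, 20.8% to 26.3% lie opposite another gene, from which reads without strand cannot be told apart.

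TFIID had 8 higher and 5 lower genes among 14 tested. Taf9b (chrX:103402222-103416497, minus strand, mm9) had 442, 482 and 464 CPM after cPDS, against 236, 231 and 230 CPM in GV_C, a log2 fold change of 0.99 ± 0.06 (adjusted p = 2.97e-09 by edgeR). Its paralogue Taf9 rose too, by 0.48 ± 0.06. Taf10, Taf5, Taf4a and Taf2 rose, by 0.75, 0.72, 0.71 and 0.52, and 45.9% of the exon bases of Taf10 lie opposite Ilk. Taf13, Taf3, Taf1, Taf11 and Taf6 fell, by 0.93, 0.88, 0.74, 0.56 and 0.46. Taf15, outside TFIID proper, had 2.02, 1.95 and 2.06 CPM after cPDS, against 5.15, 6.95 and 4.64 CPM in GV_C (-1.47 ± 0.19), and it also fell in growing Dhx36_sko (-0.60 ± 0.23), the reverse of its rise in rhau_sko. RNA polymerase II had 5 higher subunits (Polr2d, Polr2h, Polr2i, Polr2k and Polr2l), none of them changed by more than 0.47, and 1 lower, Polr2f at -0.78 ± 0.12. Polr2a did not pass the test (0.37 ± 0.19).

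**Figure D3:**
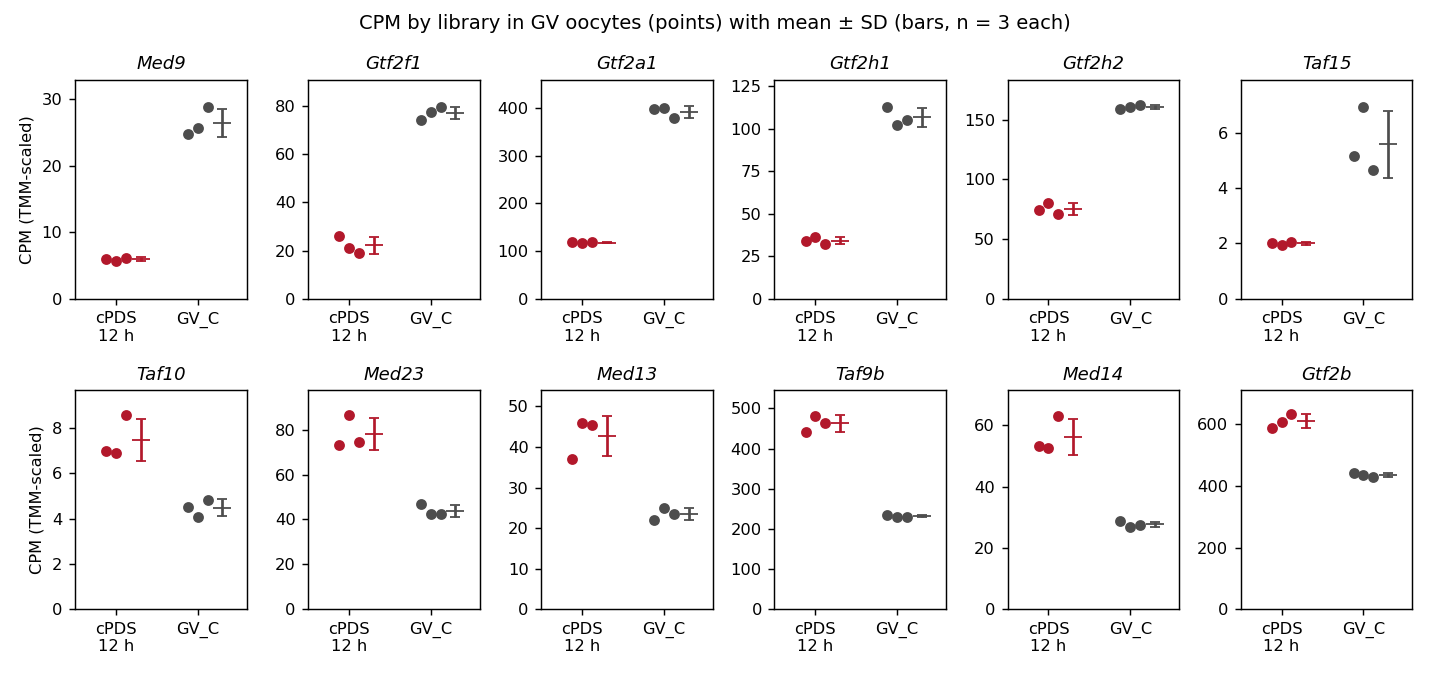
TMM-scaled CPM (y axis, from 0) of 12 members in each cPDS 12 h library (red) and GV_C library (grey), with mean ± SD beside the points (n = 3 each). The upper 6 genes are lower after cPDS and the lower 6 higher, and in none of the 12 do the groups overlap.

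Promoters of members on either side were examined for the guanine pattern of G-quadruplexes. These bases are DNA before the start, whereas cPDS was introduced above as a ligand of RNA G-quadruplexes. The table of RefSeq promoters (GRCm38.p6) held 68 of the 79 members, and the 250 bases before each start were searched on both strands for the canonical G-quadruplex pattern, 4 runs of at least 3 G with loops of 1 to 7 bases. It was present for 17 of the 68, 25%, and for 18.5% of all 27025 genes with a promoter. Of the members with a promoter it was present for 4 of 19 that fell after cPDS and 8 of 24 that rose, and among all genes tested for 26.5% of those that fell, 25.8% of those that rose and 25.4% of the rest. The letters TATAA were present for 26.5% of the members, 25.8% of all genes and 15.5% to 18.4% of the genes tested with cPDS (by call), and CCAAT for 33.8%, 37.5% and 39.1% to 43%. Each is a match of letters in a window of genomic DNA, not a shown structure or site. The promoters of a fallen gene without and with the pattern (Gtf2f1, chr17:57011289-57011538, minus strand, and Gtf2h1, chr7:46795844-46796093, plus strand) and of a risen gene with and without it (Med13, chr11:86357597-86357846, minus strand, and Med14, chrX:12761974-12762223, minus strand) are given 5′ to 3′ on the gene's strand, with matches of the pattern on either strand in capitals.
Gtf2f1: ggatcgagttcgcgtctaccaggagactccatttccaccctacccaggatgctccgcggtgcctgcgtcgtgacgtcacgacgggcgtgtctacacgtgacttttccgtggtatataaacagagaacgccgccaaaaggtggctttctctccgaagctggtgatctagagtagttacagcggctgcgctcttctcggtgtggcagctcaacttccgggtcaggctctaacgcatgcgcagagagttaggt
Gtf2h1: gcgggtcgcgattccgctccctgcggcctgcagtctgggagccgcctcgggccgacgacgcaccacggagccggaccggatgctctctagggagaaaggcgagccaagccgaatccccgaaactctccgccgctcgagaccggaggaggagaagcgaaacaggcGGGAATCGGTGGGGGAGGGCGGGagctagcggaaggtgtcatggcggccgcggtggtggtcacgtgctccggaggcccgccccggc
Med13: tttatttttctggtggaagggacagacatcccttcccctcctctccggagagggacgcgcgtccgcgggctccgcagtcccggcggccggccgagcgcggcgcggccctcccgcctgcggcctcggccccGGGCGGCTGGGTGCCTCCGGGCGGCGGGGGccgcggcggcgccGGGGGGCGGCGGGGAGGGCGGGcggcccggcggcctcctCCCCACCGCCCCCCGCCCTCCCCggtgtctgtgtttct
Med14: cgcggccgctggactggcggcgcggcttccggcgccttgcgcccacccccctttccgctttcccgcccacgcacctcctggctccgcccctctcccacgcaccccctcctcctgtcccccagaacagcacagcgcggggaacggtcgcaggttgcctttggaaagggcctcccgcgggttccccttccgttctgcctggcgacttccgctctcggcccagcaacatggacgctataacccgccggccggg

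The Trim21 libraries showed few changes in these genes at 3 h. Of 72 members tested, Gtf2h2 rose and Gtf2ird1, Polr2i and Polr2f fell, 5.56%, beside 11.5% of 14191 genes (6.26% higher, 5.23% lower). Gtf2h2 had 176, 163 and 174 CPM in Trim21, against 129, 137 and 128 CPM in control, a log2 fold change of 0.38 ± 0.10 (adjusted p = 0.0308 by edgeR). Gtf2ird1, a DNA-binding protein of the TFII-I family, had 34.4, 38.6 and 29.6 CPM, against 62, 40.7 and 56.2 CPM in control (-0.64 ± 0.17, adjusted p = 0.031 by edgeR). Polr2i and Polr2f had log2 fold changes of -0.41 ± 0.11 and -0.40 ± 0.11 (adjusted p = 0.0337 and 0.0411 by edgeR), and the groups overlapped in none of the 4. None of these calls held in every repeat with 1 library left out. Without Trim21 replicate 1 or 3, or control replicate 1 or 3, no member was called (5 to 10 had an unadjusted p under 0.05), without Trim21 replicate 2 Gtf2ird1 and Polr2i were, and without control replicate 2 there were 9 calls. Gtf2h2 was thus called higher in the 3 comparisons with lower Dhx36 and lower after cPDS, and Polr2f was called lower in all 4. In rhau_sko the call of Gtf2h2 was lost in 3 of 15 alternatives and that of Polr2f in 4. In growing Dhx36_sko the call of Polr2f was lost with library size alone. The share of all genes with such a pattern of calls was not counted.

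With DRB no member passed the test. Of 78 tested, 0 were called by edgeR, beside 0.0119% of 16784 genes (2 genes), 13 had an unadjusted p under 0.05 and DESeq2 called 5 (Gtf2a1, Polr2f, Polr2i, Polr2j and Taf5). Gtf2a1 had 254, 205 and 271 CPM in the DRB libraries, against 386, 396 and 379 CPM without DRB, with no overlap and a log2 fold change of -0.65 ± 0.12 (adjusted p = 0.127 by edgeR). Polr2i had 264, 312 and 251 CPM with DRB, against 210, 201 and 189 CPM without it (0.46 ± 0.12, adjusted p = 0.185 by edgeR). Of the 12 polymerase subunits 11 had a positive log2 fold change, between 0.06 and 0.56, and Polr2b a negative one. Exon length and log2 fold change had a Spearman rho of -0.47 across the 78 members and -0.16 across all genes. The groups did not overlap for 11 members, 14.1%, beside 10.3% of all genes. The difference between the DRB changes in rhau_sko and in c was called for 0 of 78 members, beside 0.033% of 18178 genes; 7 had an unadjusted p under 0.05, and DESeq2 also called 0.

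**Figure D4:**
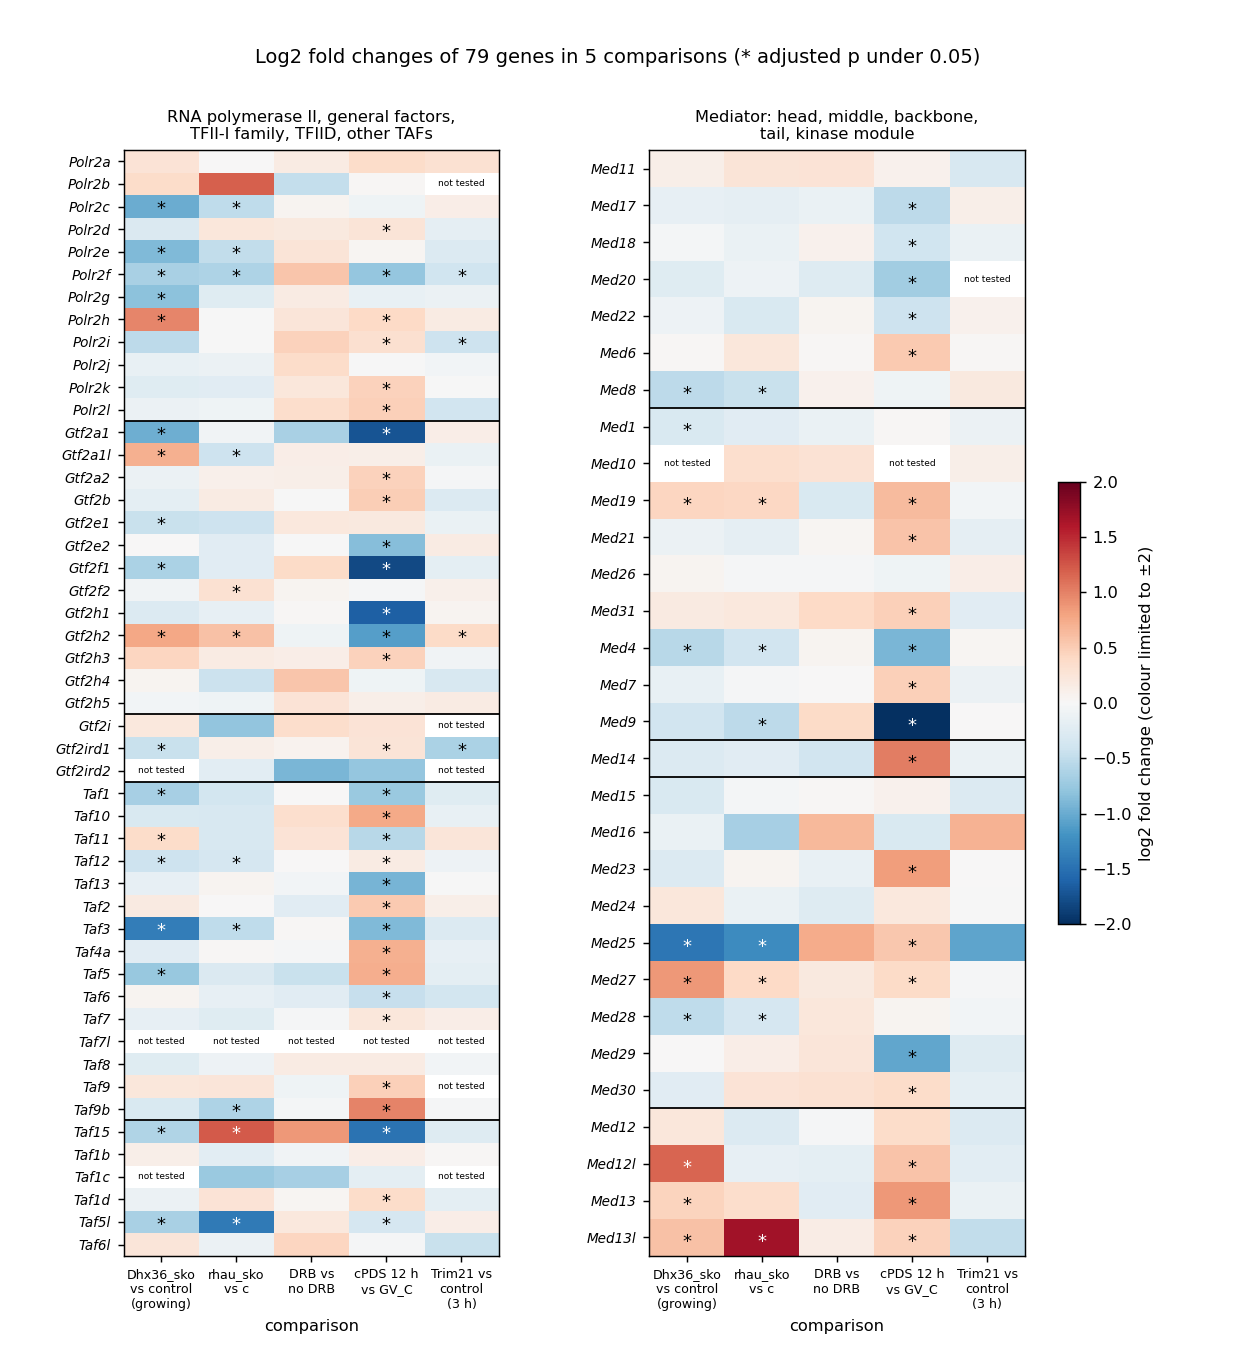
Log2 fold change (colour, limited to ±2) of each of the 79 genes (rows, by complex and module, separated by lines) in the 5 comparisons (columns); asterisks mark an adjusted p under 0.05 and white cells marked as such were not tested. Calls fill the cPDS column and are absent from the DRB column.

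Across the 5 comparisons 19 members were called in none, among them Polr2a and Med12, and Gtf2h2 and Polr2f were called in 4. The shares of all genes called in none or in 4 were not counted, so neither count sets the members apart. Not all of the 19 were tested throughout: Polr2b and Gtf2i were tested in 4 comparisons, and Gtf2ird2, Med10 and Taf1c in 3. The value of Polr2b cannot be read as its level, as said above. Taf7l, also among the 19, had too few counts to be tested in any comparison. Gtf2h1, Med14 and Gtf2b, all called after cPDS, were called in no other comparison. Gtf2h1 had log2 fold changes of -0.28 ± 0.14 in growing Dhx36_sko, -0.16 ± 0.14 in rhau_sko and 0.05 ± 0.12 in Trim21, and Med14 of -0.27 ± 0.14, -0.22 ± 0.18 and -0.13 ± 0.14, none past the test. Gtf2b had -0.19 ± 0.13, 0.16 ± 0.10 and -0.28 ± 0.10 in the same comparisons, also not past the test, and the difference between these and its cPDS change was not tested. The groups' libraries did not overlap for 36 of 75 members in growing oocytes, 48%, beside 60.9% of all genes. In the second sko comparison this held for 27 of 78, 34.6%, beside 48.2% of all genes. It held for 59 of 77 with cPDS, 76.6%, beside 58.1% of all genes. With Trim21 it held for 21 of 72, 29.2%, beside 30.1% of all genes. In the sko and Trim21 comparisons the members' share of calls, given above, was below that of all genes tested, and with cPDS above it. The median log2 CPM of the members lay between 5.08 and 6.35 over the comparisons, and that of all genes tested between 2.79 and 3.56.

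**Figure D5:**
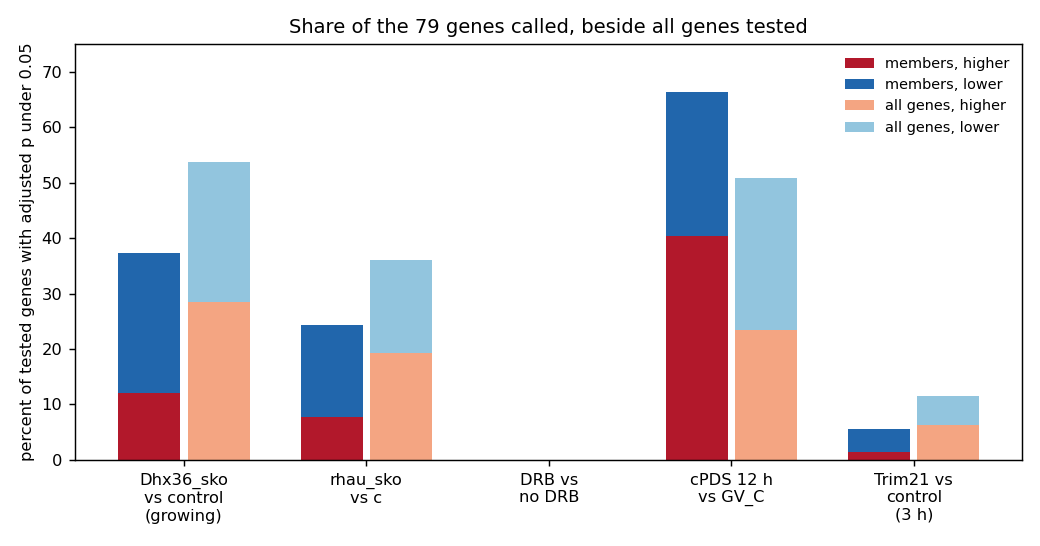
Percent of tested genes with an adjusted p under 0.05 (y axis) in the 5 comparisons, for the members (dark) and all genes (light), with higher calls in red and lower calls in blue. The members reach 66.2% with cPDS, against 50.8% of all genes, and 37.3% in growing Dhx36_sko, against 53.7%.

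Genes of the same pathway under other symbols were counted from lists that hold none of the members. Of the TFIIH genes Ercc2, Ercc3, Cdk7, Ccnh and Mnat1, Ccnh, the cyclin of the TFIIH kinase, rose in growing Dhx36_sko (0.75 ± 0.18), in rhau_sko (0.91 ± 0.14) and after cPDS (0.31 ± 0.10). Mnat1, which joins that cyclin to its kinase, fell in growing Dhx36_sko (-0.68 ± 0.12) and Trim21 (-0.44 ± 0.12) and rose in rhau_sko (0.55 ± 0.12). Ercc2, a helicase of TFIIH, averaged 5.13 ± 1.42 CPM in rhau_sko and 0.84 ± 0.218 CPM in c (log2 fold change 2.38 ± 0.34), and Ercc3, the other, fell after cPDS (-0.57 ± 0.09). Cdk7, the kinase, passed the test in none of the 5 comparisons, with log2 fold changes between -0.11 and 0.23. Of 18 tested genes for polymerase assembly, phosphatases of its tail and TFIIS, 4 rose and 5 fell in growing Dhx36_sko, 5 rose and 5 fell in rhau_sko, 8 rose and 3 fell after cPDS, and 0 were called with Trim21 or DRB by edgeR. Gpn1, a GTPase for the nuclear import of the polymerase, fell by 1.50 ± 0.08 after cPDS, and Ssu72, a phosphatase of the polymerase tail, rose in both sko comparisons (0.75 ± 0.12 and 0.38 ± 0.11) and after cPDS (0.35 ± 0.06). Of 31 genes of RNA polymerases I and III, 10 rose and 7 fell in growing Dhx36_sko, 4 rose and 9 fell in rhau_sko, 8 rose and 15 fell after cPDS, and 2 rose and 1 fell with Trim21. Of the subunits of SAGA and ATAC, 4 rose and 9 fell among 22 in growing Dhx36_sko, 3 and 7 among 23 in rhau_sko, 12 and 4 among 22 after cPDS, and 1 and 1 among 21 with Trim21. Tbpl1, the TBP-like factor, fell after cPDS by 1.53 ± 0.13 and with Trim21 by 0.72 ± 0.16, and Tbp rose by 0.38 ± 0.06 after cPDS.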

How the data were processed

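The authors deposited read counts per gene, from poly(A) RNA of oocytes. Per the submitters' processing notes the build was mm9 and the tools include fastp 0.21.0, HISAT2 2.1.0, STAR 2.5.2b and featureCounts 2.0.1; the sources do not say which of them made which table, nor the strand setting. Another deposited table held the same counts again and was not used. The test was that of edgeR 4.0.16 under R 4.3.3, with filterByExpr at a minimum count of 10, TMM scaling, the quasi-likelihood test and Benjamini-Hochberg adjustment over all genes, called under 0.05. Errors of log2 fold changes are standard errors, and others SD over libraries. DESeq2 1.42.0, other scalings and filters, and leaving out each library were alternatives, and the fits were tested on simulated data. Named genes are a set of core members plus up to 5 called members in each direction with the largest change, no overlap and at least 5 CPM, and others chosen after their values were seen. Members and lists were chosen with earlier results of these data known. Counting alone did not account for the spread between replicates. Promoters are RefSeq's, on GRCm38.p6.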

Additional observations from a re-analysis of the deposited data

Results flagged for a closer look

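For 8 members the sko change differed between the growing and the second experiment by the test of that difference (edgeR, 12 libraries, growing minus second, log2). Gtf2a1l (1.16 ± 0.19), Taf11 (0.71 ± 0.18) and Med12l (1.35 ± 0.42) were higher in growing oocytes. Taf15 (-1.81 ± 0.37), Med13l (-1.06 ± 0.24), Gtf2a1 (-0.89 ± 0.19), Taf3 (-0.85 ± 0.16) and Polr2g (-0.54 ± 0.15) were lower. When the second experiment was limited to its libraries without DRB, the adjusted p was 0.21 for Med12l, 0.151 for Polr2g and 0.09 for Med13l, and under 0.05 for the other 5, where rhau_sko is then a single library assumed to vary like the others. With library size alone Polr2g had an adjusted p of 0.118, and with DESeq2's size factors in edgeR Med12l had 0.0596.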

How the results depend on the processing

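Members called in growing Dhx36_sko numbered 22 to 31 and after cPDS 47 to 53 over the repeats with 1 library left out, and no direction turned in any alternative. In the rhau_sko comparison 8 were called on all 8 libraries, 7 within libraries without DRB, 10 within those with it (each with a single library in 1 arm), and 7 to 19 with 1 library left out, where the main count is 19. With DRB, DESeq2 called 5 and no filter on low counts gave 3. With Trim21, no filter gave 7, and leaving out 1 library gave 0 to 9, where the main count is 4. The difference between the sko changes was called for 13 members by DESeq2 and for 5 without the second experiment's DRB libraries, where the main count is 8. Replicate numbers showed no pairing in the counts, which cannot tell whether the samples were paired by design. Same-numbered libraries correlated at -0.06, -0.03 and -0.04 with cPDS and 0.07, 0.09 and -0.05 with Trim21. With the replicate number as a block 50 and 4 members were called. The cause of these changes was not tested. With 3 libraries a group, precision fell with the count: after cPDS the standard error was 0.19 for Polr2a and 0.06 for Gtf2a1.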
